A study of Mus musculus with 12 samples.

Results

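Sprouty genes and the ETS factor genes Etv4 and Etv5 are switched on by growth factor signalling through Ras and ERK, and Spred genes encode inhibitors of this pathway. Of these genes, 8 were followed here: Spry1, Spry2, Spry4, Spred1, Spred2, Spred3, Etv4 and Etv5. They were chosen by name, as inhibitors and ETS factors of this pathway, out of 49671 genes in the deposited count tables. The choice was made with earlier results of these data known. All 8 passed the filter on low counts. RNA depleted of ribosomal RNA was sequenced from NIH 3T3 cells, an immortalized fibroblast line derived from mouse embryos, in 12 libraries that form 4 groups of 3. Cells received either a non-targeting control siRNA or an siRNA against Lap2, the lamina-associated polypeptide encoded by Tmpo, and were kept in 0.3% fetal bovine serum (FBS) or given 15% FBS for 45 min after such starvation. The groups are named below by siRNA and serum. The study asked how Lap2 affects transcription in response to serum, and the comparisons are serum against starvation under each siRNA, Lap2 against control siRNA in each serum condition, and the difference between the serum responses under the 2 siRNAs. All values come from a single cell line and a transient knockdown, and the labels do not say whether the 3 replicates were separate cultures, so the p-values measure the spread between these libraries, which may be technical.

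ERK is the kinase at the end of the Ras, Raf and MEK cascade, and growth factors in serum activate it within minutes in starved fibroblasts. Sprouty proteins are induced by this signal and dampen it, acting between the receptor and Ras or on Raf. Spred proteins, which share the cysteine-rich C-terminal region of Sprouty and carry an EVH1 domain, bring the Ras GTPase-activating protein neurofibromin to the membrane. Etv4 and Etv5 belong to the PEA3 group of ETS transcription factors, whose transcripts are widely used as readouts of ERK activity.

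The libraries held between 18026298 and 26265253 counts in genes. The target gene Tmpo followed the labels. Its normalized counts were 2775, 2805 and 2885 with control siRNA in 0.3% FBS against 982, 1175 and 1093 with Lap2 siRNA, and 3264, 3243 and 3019 against 767, 745 and 607 in 15% FBS. Lap2 siRNA thus left 38.4% of the Tmpo signal in 0.3% FBS (edgeR adjusted p = 8.7e-16), and the remainder in 15% FBS was 22.2% (edgeR adjusted p = 3.8e-19). Counts per gene do not separate the isoforms of Lap2. The 10 fibroblast markers examined were all present, from Fn1 at a mean counts-per-million (CPM) value of 8570 to S100a4 at 33.2 CPM, while 5 of 5 epithelial, 4 of 4 endothelial and 4 of 5 blood cell markers lay under 1 CPM, with Krt18 and Cd3e at 0 in every library and Cd68 the highest at 1.87 CPM. The summed level of the fibroblast markers ran from 43200 to 49510 CPM in the 6 control siRNA libraries and from 25890 to 35000 CPM in the 6 Lap2 siRNA libraries, without overlap, and its part in the results below was not tested. Trimmed mean of M values (TMM) scaling factors also moved with the groups, from 0.893 to 0.905 with control siRNA and 0.950 to 0.960 with Lap2 siRNA in 15% FBS, against 1.04 in all 3 control and 1.118 to 1.125 in the Lap2 siRNA libraries in 0.3% FBS. Scaling to total counts instead lowers the median of all genes by 0.21 in the serum comparison with control siRNA and by 0.23 with Lap2 siRNA, and raises it by 0.11 in the siRNA comparison in 0.3% FBS and 0.09 in 15% FBS, all on the log2 scale. Member results that this scaling changes are named as such. Because these are bulk libraries, fewer cells expressing a gene and less RNA per cell cannot be told apart.

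With control siRNA, serum raised all 8 genes, and Spry4 rose by far the most. Among all 18668 genes tested, 15.6% were called higher and 13.9% lower in this comparison at an edgeR adjusted p under 0.05. The members' log2 fold changes ran from 0.29 for Spred3 to 3.49 for Spry4, with a median of 0.91, against -0.01 over all genes tested. The Spred3 libraries of the compared groups overlapped. The share of all genes whose groups did not overlap was not computed. Scaled to total counts, 6 of the 8 members were called, all higher, while the calls over all genes turned from 2915 higher and 2597 lower to 1632 higher and 5847 lower.

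With Lap2 siRNA the response was split. Spry1, Spry2, Spry4 and Etv5 rose with serum, Spred2 and Etv4 fell, and Spred1 and Spred3 did not pass the test. Over all genes, 18.3% were called higher and 14.9% lower, and the median log2 fold change was 0.20 over the members and 0.00 over all genes tested. Under total counts, 3 members were called higher and 3 lower, and the calls over all genes were 1658 higher and 5951 lower in place of 3420 and 2777.

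In starved cells, Lap2 siRNA raised 5 members, Spry4, Spred1, Spred2, Etv4 and Etv5, and lowered 2, Spry1 and Spry2. Spred3 did not pass. Of all genes tested, 17.8% were called higher and 18.6% lower, and the median log2 fold change was 0.45 over the members and 0.01 over all genes. Total counts gave 6 members higher and 1 lower, and over all genes 4692 higher and 2638 lower in place of 3330 and 3480.

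In 15% FBS, 2 members were higher with Lap2 siRNA than with control siRNA, Spry4 and Spred1, and 3 were lower, Spry1, Spry2 and Etv5. Spred2, Spred3 and Etv4 did not pass. Here 11.4% of all genes were called higher and 12.1% lower, and the medians were -0.08 over the members and 0.02 over all genes. With total counts 2 members were called higher and 2 lower, and over all genes 3471 higher and 1678 lower in place of 2125 and 2250.

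The serum response itself differed between the siRNAs for 5 members, Spry4, Spred1, Spred2, Etv4 and Etv5. In all 5 the signed log2 response was lower with Lap2 siRNA, a smaller rise for Spry4 and Etv5, a fall in place of a rise for Spred2 and Etv4, and for Spred1 a rise with control siRNA and no call with Lap2 siRNA. Over all genes, 7.09% had a higher and 6.51% a lower signed log2 response with Lap2 siRNA at the same threshold. The median difference was -0.58 over the members and 0.02 over all genes, and total counts left the same 5 members called lower. The comparisons share libraries: the starved control libraries are the reference of both the serum response with control siRNA and the siRNA effect in 0.3% FBS. The difference in serum response is by construction the siRNA effect in 15% FBS minus that in 0.3% FBS. The knockdown itself also differed between the serum conditions, with a difference of -0.79 for Tmpo (edgeR adjusted p = 3e-06). Its part in the results of the members was not tested.

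**Figure D1:**
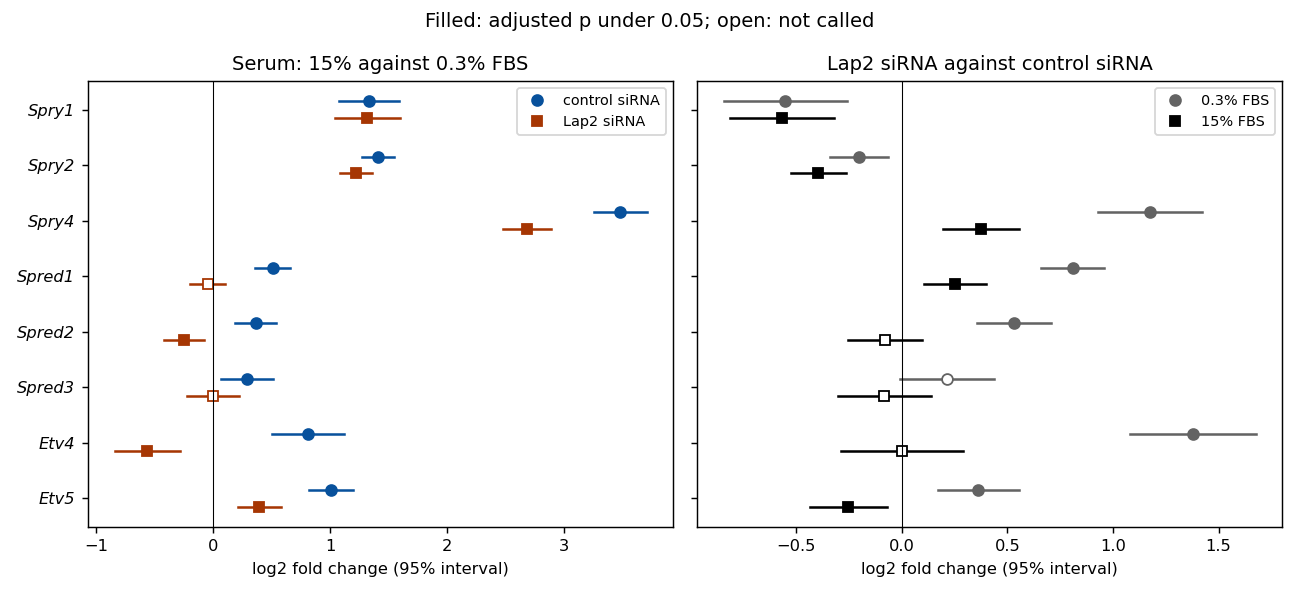
Log2 fold change with its 95% interval for the 8 genes (edgeR), on the left for 15% against 0.3% FBS with control siRNA (circles) and Lap2 siRNA (squares), on the right for Lap2 against control siRNA in 0.3% FBS (circles) and 15% FBS (squares), with filled symbols for an adjusted p under 0.05. Spry4 lies at 3.49 and 2.69 on the left, Etv4 changes side between the siRNAs (0.81 and -0.56), and on the right Spry1 and Spry2 lie below 0 in both serum conditions.

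Among the Sprouty genes, Spry4 had the largest serum response of the 8 members and, per length, the lowest level in starved control cells. Spry4 (ENSMUSG00000024427, chr18:38586268-38601268, minus strand, mm10) encodes a Sprouty that inhibits receptor signalling to Ras and Raf. With control siRNA its normalized counts were 155, 167 and 108 in 0.3% FBS and 1732, 1635 and 1499 in 15% FBS. The groups lie far apart, an 11.2-fold rise (log2 fold change 3.49 ± 0.11 SE, edgeR adjusted p = 3.1e-23). With Lap2 siRNA the counts were 280, 331 and 372 in 0.3% FBS and 2070, 2040 and 2202 in 15% FBS. All 3 starved Lap2 siRNA libraries lay above all 3 starved controls, and the same order held in serum. The rise with serum was 6.44-fold under Lap2 siRNA (log2 fold change 2.69 ± 0.10, edgeR adjusted p = 3.9e-21). Lap2 siRNA raised Spry4 2.26-fold in starved cells (edgeR adjusted p = 1.2e-09), and in stimulated cells it raised it 1.30-fold (edgeR adjusted p = 0.0014). The response to serum was therefore smaller with Lap2 siRNA, by 0.80 on the log2 scale (95% interval -1.11 to -0.49, edgeR adjusted p = 0.00023), although its level in serum was the higher of the 2. On the opposite strand, Gm27369 and Gm27804 overlap Spry4, and both were at 0 in every library.

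Spry2 (ENSMUSG00000022114, chr14:105891949-105896819, minus strand, mm10) encodes a Sprouty known to bind the ubiquitin ligase Cbl and the adaptor Grb2. Its starved control libraries held 1186, 1215 and 1235 normalized counts, and those in 15% FBS held 3207, 3409 and 3061. With Lap2 siRNA they held 1033, 1091 and 1036 in 0.3% FBS and 2458, 2574 and 2334 in 15% FBS. No 2 groups overlap, and each Lap2 siRNA group lies below its control. Serum raised Spry2 2.66-fold with control siRNA (edgeR adjusted p = 2.4e-18) and 2.33-fold with Lap2 siRNA (edgeR adjusted p = 2.3e-16). With Lap2 siRNA its level fell by 0.39 on the log2 scale in 15% FBS (SE 0.064, edgeR adjusted p = 1.4e-05). In 0.3% FBS the log2 fold change was -0.20 ± 0.068 (edgeR adjusted p = 0.018), and this call was lost without starved control replicate 2 (adjusted p = 0.081), starved control replicate 3 (0.091) or starved Lap2 siRNA replicate 3 (0.075), and with total counts (-0.09, adjusted p = 0.32). The difference in serum response, -0.19, did not pass (95% interval -0.38 to -0.002, edgeR adjusted p = 0.2).

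Promoter windows from RefSeq (GRCm38.p6, 250 bases before to 50 after an annotated start) were used for 6 of the members, all but Spry4 and Etv4, in 7 windows because Etv5 has more than 1 start. They were searched on both strands for motifs bound by serum-responsive factors. The ETS core CCGGAA was found, among these 6 members, in the window of Spry2, at base 34 after the start, while 14.9% of all 32851 windows hold it. The stretch around it, chr14:105896770-105896799 on the minus strand, is shown as the sequence among those searched that holds this core, with the match in capitals.
Spry2: gaggtcatctatcCCGGAAtccgggagggt

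Spry1 (ENSMUSG00000037211, chr3:37639947-37644598, plus strand, mm10), another Sprouty inhibitor of receptor signalling, moved in the same directions as Spry2 at a lower level per length. Normalized counts with control siRNA were 239, 154 and 162 in 0.3% FBS and 441, 482 and 476 in 15% FBS. With Lap2 siRNA they were 129, 121 and 129 in 0.3% FBS and 355, 314 and 278 in 15% FBS. The Lap2 siRNA libraries lie below the controls in both conditions, and starved control replicate 1 stands above the other 2 of its group. Serum raised Spry1 2.52-fold with control siRNA (edgeR adjusted p = 1.7e-10) and 2.50-fold with Lap2 siRNA (edgeR adjusted p = 1.6e-09). The difference between these responses was -0.02, with a 95% interval from -0.41 to 0.37 (edgeR adjusted p = 0.98). Lap2 siRNA lowered Spry1 to 67.6% of control in 15% FBS (log2 fold change -0.57 ± 0.12, edgeR adjusted p = 0.00055). In 0.3% FBS the log2 fold change was -0.55 ± 0.14 (edgeR adjusted p = 0.0024), but -0.31 without starved control replicate 1, which no longer passed (adjusted p = 0.082). The antisense gene Gm42922 overlaps Spry1 and held 1 to 16 reads per library.

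**Figure D2:**
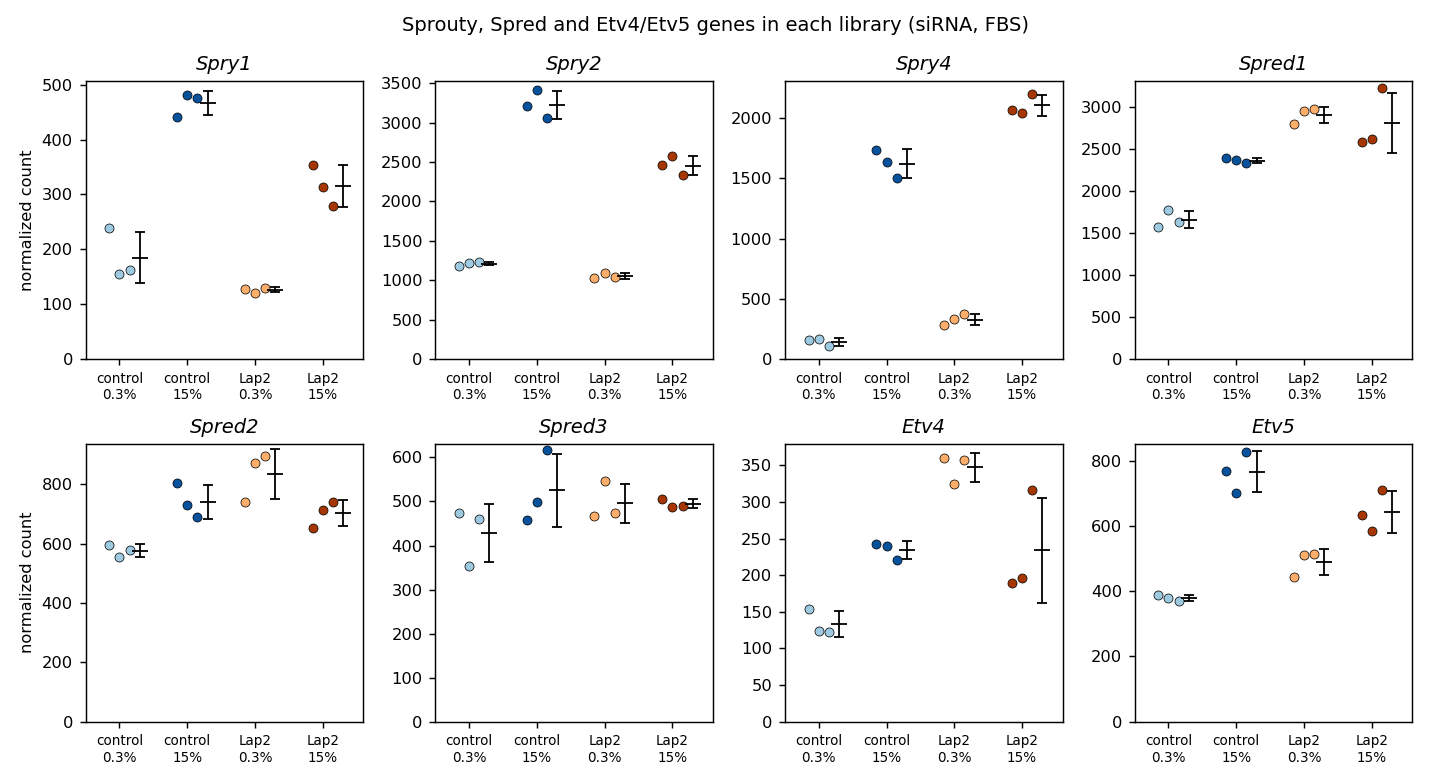
Normalized counts of the 8 genes in each of the 12 libraries (points, replicates 1 to 3 from left to right in each group), with the mean and SD of each group of 3 beside them; each panel has its own scale from 0, and groups are named by siRNA and FBS. Spry4 in serum reaches 1622 with control and 2104 with Lap2 siRNA on average, and Etv4 and Spred1 show replicate 3 of the Lap2 siRNA group in 15% FBS above the other 2.

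Per length, the makeup of the Sprouty members shifted towards Spry4 with serum and with Lap2 siRNA. Spry3, the remaining Sprouty gene, is not among the members and is not part of the sums and shares given here. Levels in CPM per kilobase of merged exons, summed over Spry1, Spry2 and Spry4, were 32.0 ± 0.34 (SD, n = 3) in starved control cells and 97.1 ± 4.7 in serum-stimulated control cells, against 29.3 ± 0.85 and 81.9 ± 2.2 with Lap2 siRNA. The sum was lower with Lap2 siRNA in 15% FBS without overlap, also with total counts (76.0 to 80.5 against 82.3 to 91.6). In 0.3% FBS the groups did not overlap under TMM scaling, but with total counts they did (31.7 to 33.8 against 33.0 to 33.6). Spry2 was the main transcript among Spry1, Spry2 and Spry4 throughout, at 86.1%, 75.5%, 81.8% and 68.1% of the sum in the order control 0.3%, control 15%, Lap2 0.3% and Lap2 15% FBS. The share of Spry4 went from 4.47% ± 0.97 in starved to 16.7% ± 0.94 in stimulated control cells, and from 11.2% ± 1.4 to 25.6% ± 1.8 with Lap2 siRNA. No library of these 4 groups overlaps with another group in this share. Within each library, the log2 ratio of raw Spry4 to Spry2 counts, not divided by length, does not depend on scaling between libraries. It was -3.52 to -2.86 in starved and -1.06 to -0.89 in stimulated controls, and -1.88 to -1.48 and -0.34 to -0.08 with Lap2 siRNA. These ratios were added after the values had been seen.

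**Figure D3:**
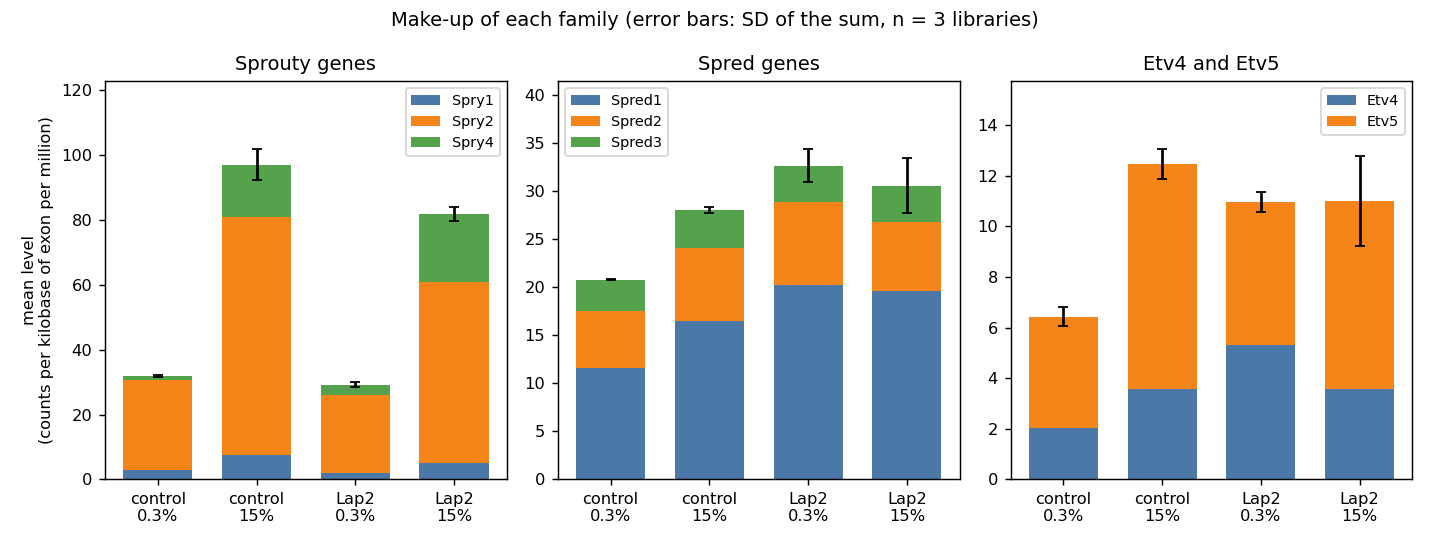
Stacked mean levels, in CPM per kilobase of exon, of Spry1, Spry2 and Spry4 (left), the Spred genes (middle) and Etv4 and Etv5 (right) in the 4 groups, each panel on its own scale, with error bars for the SD of the sum over 3 libraries. The Sprouty sum is 32.0 and 29.3 in 0.3% FBS and 97.1 and 81.9 in 15% FBS, with Spry2 as the main part, while the Spred sum is lowest in starved control cells at 20.8.

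The Spred genes had small serum responses, and Spred1 and Spred2 were raised in starved cells by Lap2 siRNA. Spred1 (ENSMUSG00000027351, chr2:117121374-117182279, plus strand, mm10) encodes the Spred best known for recruiting neurofibromin. Its normalized counts were 1569, 1772 and 1628 in starved and 2385, 2360 and 2329 in stimulated control cells. With Lap2 siRNA they were 2794, 2949 and 2968 in 0.3% FBS and 2582, 2620 and 3221 in 15% FBS. The starved Lap2 siRNA libraries exceed every control library, stimulated ones included, and the 2 Lap2 siRNA groups overlap. Lap2 siRNA raised Spred1 1.75-fold in 0.3% FBS (log2 fold change 0.81 ± 0.074, edgeR adjusted p = 8.6e-11). Serum raised it 1.42-fold with control siRNA (edgeR adjusted p = 1.1e-06), or by 0.30 on the log2 scale with total counts in place of 0.51. With Lap2 siRNA the log2 fold change with serum was -0.05 (95% interval -0.20 to 0.10, edgeR adjusted p = 0.68), but -0.28 with total counts, which passed (adjusted p = 0.0023). The responses differed by -0.56 (95% interval -0.77 to -0.35, edgeR adjusted p = 0.00021). In 15% FBS the higher level with Lap2 siRNA (log2 fold change 0.25 ± 0.073, edgeR adjusted p = 0.0095) rested on replicate 3 of the stimulated Lap2 siRNA group, without which it was 0.13 (adjusted p = 0.24).

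Spred2 (ENSMUSG00000045671, chr11:19924375-20024026, plus strand, mm10), a further Spred with the same inhibitory role, had normalized counts of 597, 556 and 578 in starved and 803, 732 and 689 in stimulated control cells. With Lap2 siRNA the counts were 740, 871 and 895 in 0.3% FBS and 654, 715 and 739 in 15% FBS. Starved control cells form the lowest group, apart from all others, and the order of starved and stimulated cells turns between the siRNAs. Lap2 siRNA raised Spred2 1.45-fold in 0.3% FBS (edgeR adjusted p = 5.4e-06), and the log2 difference in 15% FBS was -0.08 (95% interval -0.25 to 0.10, edgeR adjusted p = 0.6). Serum raised it 1.29-fold with control siRNA (log2 fold change 0.36 ± 0.086, edgeR adjusted p = 0.0011), a call lost with total counts (0.16, adjusted p = 0.16). With Lap2 siRNA it fell by 0.25 on the log2 scale (edgeR adjusted p = 0.023), and by 0.48 with total counts. That call was lost without starved Lap2 siRNA replicate 2 (adjusted p = 0.065) or 3 (0.086), or stimulated Lap2 siRNA replicate 1 (0.13), and the 2 groups come within 1 normalized count of each other. The responses differed by -0.61 (95% interval -0.86 to -0.36, edgeR adjusted p = 0.00046).

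In the same windows of 6 members, the half-site TGACGT of the cAMP response element was found in that of Spred2, on the opposite strand 52 bases before the RefSeq start used for the window, and in 7.51% of all windows. The deposited gene begins 67 bases before that RefSeq start, so by its coordinates the half-site begins at base 16 of the gene. The bases around it, chr11:19924378-19924407 on the plus strand, are shown as the searched sequence that holds this half-site, in capitals as its reverse complement.
Spred2: gccgctgggaagACGTCAtcgcttccgccc
The whole element TGACGTCA (1.79% of all windows), the AP-1 site TGANTCA (7.81%) and the CArG box bound by SRF (1.63%) were in none of these 7 windows. No window of Spry4, the member with the largest serum response, or of Etv4 was searched. Whether their promoters hold any of these motifs was therefore not tested. G and C made up 55.0% of the window of Spred3, 57.0% of that of Spred2 and up to 74.0%, in a window of Etv5, and 4 of the 7 windows lay above the upper quartile of all windows, 61.7% (median 52.7%).

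Spred3 (ENSMUSG00000037239, chr7:29158829-29170411, minus strand, mm10) is a further gene of this family. Its normalized counts were 474, 353 and 460 in starved and 459, 500 and 618 in stimulated control cells, and 466, 547 and 475 in starved and 506, 488 and 491 in stimulated Lap2 siRNA cells. The groups overlap in all 4 comparisons. The serum comparison with control siRNA passed at a log2 fold change of 0.29 ± 0.11 (edgeR adjusted p = 0.04), but not without starved control replicate 2 (0.18, adjusted p = 0.26), stimulated control replicate 2 (0.33, adjusted p = 0.05) or stimulated control replicate 3 (0.16, adjusted p = 0.33), nor with upper-quartile normalization (0.20, adjusted p = 0.18) or total counts (0.09, adjusted p = 0.59). In starved cells the log2 difference with Lap2 siRNA was 0.21 (95% interval -0.009 to 0.44, edgeR adjusted p = 0.13), and with total counts it passed at 0.32 (adjusted p = 0.017). The responses to serum differed by -0.30 (95% interval -0.61 to 0.02, edgeR adjusted p = 0.23). Ggn overlaps Spred3 on the opposite strand and held 42 to 127 reads per library.

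Summed per length, the 3 Spred genes had 20.8 ± 0.055 CPM per kilobase (SD, n = 3) in starved control cells, and 28.1 ± 0.30, 32.7 ± 1.7 and 30.6 ± 2.8 in stimulated control, starved Lap2 siRNA and stimulated Lap2 siRNA cells. Starved control cells were thus the lowest group, and the libraries of the 2 Lap2 siRNA groups overlapped, all above those of stimulated control cells, while with total counts the starved Lap2 siRNA libraries (34.3 to 37.9) lay above the stimulated ones (27.2 to 32.4). Spred1 made up 55.7%, 58.7%, 62.2% and 64.0% of the sum in these 4 groups in turn.

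Of the ETS factors, Etv4 responded to serum in opposite directions under the 2 siRNAs. Etv4 (ENSMUSG00000017724, chr11:101769742-101785371, minus strand, mm10) had normalized counts of 154, 124 and 123 in starved and 243, 240 and 221 in stimulated control cells. With Lap2 siRNA it had 360, 325 and 357 in 0.3% FBS and 189, 196 and 316 in 15% FBS. The starved Lap2 siRNA libraries are the highest of all 12, and replicate 3 of the stimulated Lap2 siRNA group lies far above the other 2 of its group. Lap2 siRNA raised Etv4 2.60-fold in 0.3% FBS (log2 fold change 1.38 ± 0.15, edgeR adjusted p = 2.3e-09). Serum raised it 1.76-fold with control siRNA (edgeR adjusted p = 5.2e-05). With Lap2 siRNA it fell by 0.56 on the log2 scale (SE 0.14, edgeR adjusted p = 0.0015), or by 0.86 without the outlying replicate 3 (adjusted p = 3.3e-06). The difference between the responses was -1.38 (95% interval -1.79 to -0.96, edgeR adjusted p = 8.4e-06), the largest of the 8 members. In 15% FBS the siRNA groups had a log2 difference of 0.001 with a 95% interval from -0.29 to 0.29 (edgeR adjusted p = 1), and -0.30 (adjusted p = 0.13) without that replicate.

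Etv5 (ENSMUSG00000013089, chr16:22381309-22439719, minus strand, mm10), the closest relative of Etv4 among the members, kept its rise with serum under both siRNAs. Normalized counts were 389, 380 and 370 in starved and 770, 702 and 828 in stimulated control cells, and 443, 512 and 513 in starved and 633, 584 and 710 in stimulated Lap2 siRNA cells. Starved Lap2 siRNA cells lie above starved controls, and stimulated ones mostly below stimulated controls, with 1 library inside their range. Serum raised Etv5 2.02-fold with control siRNA (edgeR adjusted p = 6.7e-11) and 1.32-fold with Lap2 siRNA (log2 fold change 0.40 ± 0.091, edgeR adjusted p = 0.00079), the latter no longer passing with total counts (0.17, adjusted p = 0.15). Lap2 siRNA raised it 1.29-fold in 0.3% FBS (edgeR adjusted p = 0.0024). In 15% FBS it fell by 0.25 on the log2 scale (edgeR adjusted p = 0.036), a call lost with total counts (-0.17, adjusted p = 0.18) and without stimulated control replicate 1 (adjusted p = 0.075) or 3 (0.18), or stimulated Lap2 siRNA replicate 1 (0.099) or 2 (0.21). The serum responses differed by -0.62 (95% interval -0.88 to -0.35, edgeR adjusted p = 0.00095).

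Together the pair summed to 6.43 ± 0.37 CPM per kilobase (SD, n = 3) in starved control cells, and to 12.4 ± 0.59, 11.0 ± 0.39 and 11.0 ± 1.8 in stimulated control, starved Lap2 siRNA and stimulated Lap2 siRNA cells. The starved Lap2 siRNA libraries (10.6 to 11.4) lay below those of stimulated control cells (11.8 to 12.9). With total counts this order turned, with 11.9 to 12.7 in starved Lap2 siRNA and 10.6 to 11.5 in stimulated control cells. Etv4 was 48.5% ± 3.1 of this sum in starved Lap2 siRNA cells and 28.9% to 32.0% on average in the other groups, with no overlap between the former and the rest. Within a library, the log2 ratio of raw Etv4 to Etv5 counts, not divided by length, was -0.66 to -0.30 in starved Lap2 siRNA cells. In the remaining 9 libraries it was -1.91 to -1.17.

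Ordered by level per length, Spry2 was the highest member in every group, at 27.5, 73.3, 23.9 and 55.8 CPM per kilobase in control 0.3%, control 15%, Lap2 0.3% and Lap2 15% FBS. In starved control cells it was followed by Spred1 (11.6), Spred2 (5.92), Etv5 (4.39), Spred3 (3.27), Spry1 (3.02), Etv4 (2.04) and Spry4 (1.43), and only Spred3 and Spry1 overlapped as neighbours. Serum moved Spry4 from the last place to 16.2, beside Spred1 at 16.5, with overlapping libraries. In starved Lap2 siRNA cells Spred1, at 20.3, came close to Spry2 without overlap, Etv4 reached 5.30 beside Etv5 at 5.65 with overlap, and Spry1 was the lowest at 2.06. In stimulated Lap2 siRNA cells Spry4 (21.0) and Spred1 (19.6) overlapped behind Spry2, and Spred3 (3.77) and Etv4 (3.57) overlapped at the low end.

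Other genes of the pathway were read from lists drawn up from general knowledge, with earlier results of these data known. The closest set to the members by role is 25 other ERK-responsive feedback and target genes. With control siRNA, serum raised 23 and lowered 2 of them, at a median log2 fold change of 4.62, with Lif, Fosb and Errfi1 at 7.16, 6.78 and 6.77. Raised genes were 92.0% of the list, against 15.6% of all genes tested, and lowered genes 8.0% against 13.9%. With Lap2 siRNA serum raised 21 and lowered 3, or 84.0% and 12.0%, against 18.3% and 14.9% of all genes. In starved cells Lap2 siRNA raised 19 and lowered 3 of them (median 0.74), led by the ERK phosphatase genes Dusp4 (2.88, edgeR adjusted p = 2.9e-10), Dusp5 (1.53, adjusted p = 1.4e-15) and Dusp6 (1.39, adjusted p = 2.2e-15) and the AP-1 subunit gene Fosl1 (1.62, adjusted p = 1.7e-13). The 3 lowered were Spsb1 (-1.315, edgeR adjusted p = 2.3e-13), the feedback gene Il17rd (-0.98, adjusted p = 6.9e-11) and Fosb (-0.56, adjusted p = 0.0023). The counts in starved cells were 76.0% and 12.0% of the list, against 17.8% and 18.6% of all genes. In 15% FBS only 2 were higher and 8 lower, and with total counts 6 and 8. Under TMM scaling these were 8.0% and 32.0%, against 11.4% and 12.1% of all genes. The signed serum response was lower with Lap2 siRNA for 19 and higher for 1, Spsb1 (1.64), which went from -0.37 with control siRNA to 1.27 with Lap2 siRNA. The median difference was -0.92, with Dusp4 at -2.52, Dusp6 at -1.86 and Fosl1 at -1.81. Dusp4 averaged 27 normalized counts in starved control cells, and its difference had an SE of 0.33, against 0.10 for Dusp6. Lower and higher responses made up 76.0% and 4.0% of the list, against 6.51% and 7.09% of all genes. These counts stand beside 5 lower and 0 higher among the 8 members in the same comparison.

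The 27 genes of the cascade itself, from receptors to ERK and its RSK kinases, moved otherwise. In starved cells Lap2 siRNA lowered 12 of them and raised 1, and in 15% FBS it lowered 10 and raised 1, against 8 lower and 3 higher, and 9 lower and 4 higher, with total counts. Under TMM scaling the lowered genes were 44.4% and 37.0% of the list, beside 18.6% and 12.1% of all genes. The raised genes were 3.7% in both conditions, beside 17.8% and 11.4% of all genes. Pdgfra, a receptor for platelet-derived growth factor, fell by 1.61 (edgeR adjusted p = 2.3e-16) and 0.42 (adjusted p = 0.00027) on the log2 scale in the respective conditions, and Gab1, a docking protein downstream of receptors, by 0.83 (adjusted p = 2.6e-08) and 0.72 (adjusted p = 1.3e-06). Serum called 6 cascade genes higher and 5 lower with control siRNA and 11 higher and 2 lower with Lap2 siRNA, but 2 and 8, and 3 and 9, with total counts, and the list's median changed sign between these scalings. Under TMM scaling the shares with control siRNA were 22.2% higher and 18.5% lower, near the 15.6% and 13.9% of all genes. With Lap2 siRNA they were 40.7% and 7.41%, beside 18.3% and 14.9% of all genes. The signed serum response differed for 3, all higher with Lap2 siRNA. These were 11.1% of the list, beside 7.09% of all genes. Pdgfra fell by 1.16 with serum under control siRNA (adjusted p = 2.5e-13) and had a log2 fold change of 0.03 under Lap2 siRNA (adjusted p = 0.82), a difference of 1.20 (adjusted p = 5.8e-09).

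Of 18 Ras GTPase-activating proteins and binding partners of Sprouty or Spred, 17 were tested. Serum raised 8 and lowered 2 with control siRNA, and raised 7 and lowered 2 with Lap2 siRNA, against 7 and 5, and 6 and 6, with total counts. Under TMM scaling the raised genes were 47.1% and 41.2% of the list, beside 15.6% and 18.3% of all genes. The lowered genes were 11.8% in both, beside 13.9% and 14.9% of all genes. The largest rises were those of Siah2, a ubiquitin ligase that targets Sprouty, at 1.67 and 1.54, and of the caveolin gene Cav1 at 1.41 and 1.24 on the log2 scale. Lap2 siRNA raised 3 and lowered 5 in 0.3% FBS and raised 2 and lowered 6 in 15% FBS, which total counts turned to 6 and 3, and 4 and 4. Under TMM scaling the raised genes were 17.6% and 11.8% of the list, near the 17.8% and 11.4% of all genes. The lowered genes were 29.4% and 35.3%, beside 18.6% and 12.1% of all genes. Cav1 fell by 0.49 (edgeR adjusted p = 4e-08) and 0.65 (adjusted p = 2.6e-10). Nf1, which encodes the neurofibromin that Spred proteins bring to Ras, had a log2 fold change with serum of 0.12 under control siRNA (adjusted p = 0.31) and fell by 0.33 under Lap2 siRNA (adjusted p = 0.0019), a difference of -0.45 (adjusted p = 0.0073).

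Among 14 other ETS factors, serum raised 11 and lowered 1 with control siRNA and raised 9 and lowered 2 with Lap2 siRNA. Raised genes were 78.6% and 64.3% of the list, beside 15.6% and 18.3% of all genes. Lowered genes were 7.14% and 14.3%, beside 13.9% and 14.9% of all genes. Etv1, the remaining PEA3 group gene, rose by 0.76 with serum under control siRNA (edgeR adjusted p = 8.6e-05), fell by 0.76 under Lap2 siRNA (adjusted p = 2.3e-05) and was raised by 1.50 in starved cells by Lap2 siRNA (adjusted p = 1.3e-10). Its mean normalized counts of 153, 259, 435 and 255 in control 0.3%, control 15%, Lap2 0.3% and Lap2 15% FBS follow the same order as those of Etv4, 134, 235, 347 and 234, with starved Lap2 siRNA cells on top. The response of Etv1 differed by -1.52 between the siRNAs (adjusted p = 9.4e-07), beside -1.38 for Etv4. Lap2 siRNA raised 5 of the 14 and lowered 3 in 0.3% FBS, and raised 1 and lowered 3 in 15% FBS, where total counts gave 3 higher and 2 lower. Under TMM scaling the shares in 0.3% FBS were 35.7% higher and 21.4% lower, beside 17.8% and 18.6% of all genes. In 15% FBS they were 7.14% and 21.4%, beside 11.4% and 12.1% of all genes. The signed serum response was higher with Lap2 siRNA for 2 and lower for 3. These were 14.3% and 21.4% of the list, beside 7.09% and 6.51% of all genes.

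**Figure D4:**
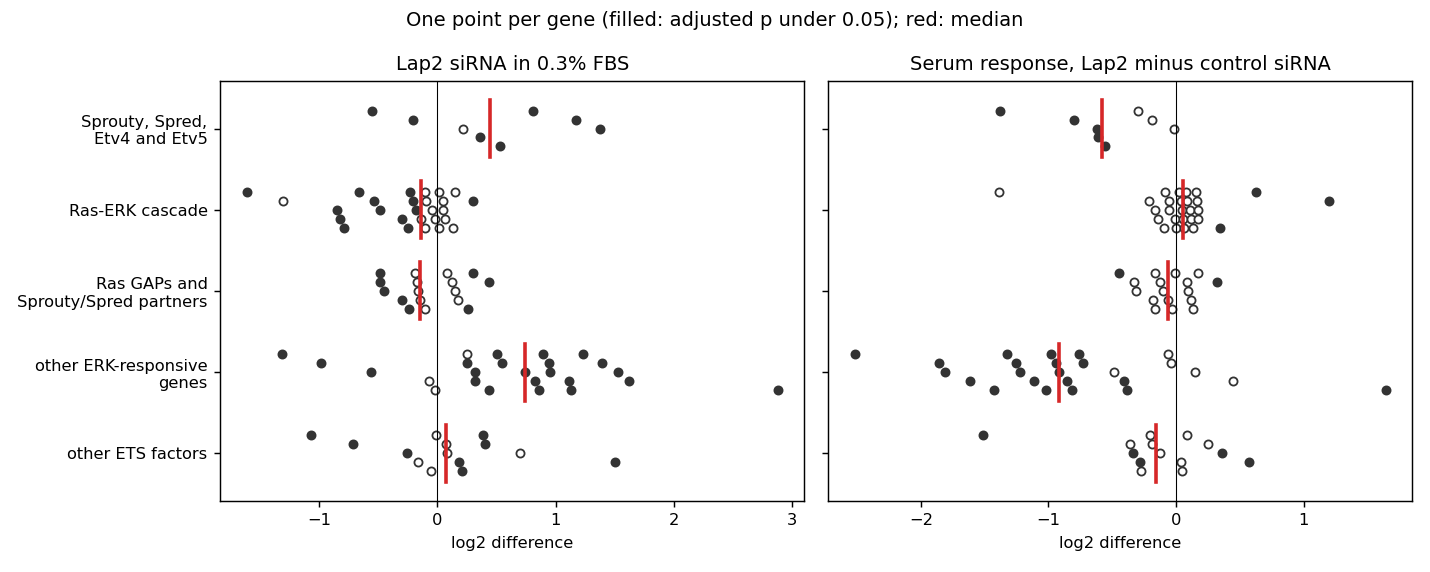
Log2 difference of each gene (points, filled for an edgeR adjusted p under 0.05) in the 8 members and the 4 lists, on the left for Lap2 against control siRNA in 0.3% FBS and on the right for the serum response with Lap2 minus that with control siRNA, with red bars for the medians. The medians are 0.45 and -0.58 for the members, 0.74 and -0.92 for the other ERK-responsive genes and -0.14 and 0.05 for the cascade genes, and single genes lie on the other side, such as Spry1 (-0.55) and Spry2 (-0.20) on the left.

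Across the 12 libraries, likeness of pattern was described by the root-mean-square difference of centred log2 CPM, among the 10443 genes that averaged 100 normalized counts or more. Nearest to Spry4 were Phlda1 (0.22), itself an ERK-responsive gene of the list above, and Skil (0.24), and the nearest member, Spry2, lay at 1.07. Spry1 was close to Cav1 (0.19), and Spry1 and Spry2 were each other's nearest member at 0.21. For Spry2 the nearest genes were Rnf34 (0.069) and Kctd10 (0.073). Spred1 was nearest to Mbnl1 (0.056) and Grwd1 (0.086), Spred2 to Urb1 (0.074) and Myo1e (0.082), and Spred3 to Ccnl2 (0.057) and Col27a1 (0.082). Etv4 was nearest to Polq (0.14) and Atad2 (0.15), with Spred1 as nearest member at 0.28, and Etv5 to Soat1 (0.074) and Ranbp2 (0.086). Small values come easily to genes that vary little, so the distances of Spred3, whose log2 CPM spanned 0.81, and of Spry4, which spanned 4.33, are not on an equal footing.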

How the data were processed

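RNA-seq of NIH 3T3 cells was analysed in 12 libraries, 3 for each combination of control or Lap2 siRNA with 0.3% or 15% FBS, grouped by their labels. The authors depleted ribosomal RNA, prepared directional libraries, aligned reads to mm10 with TopHat2 under default settings and counted them per gene with HTSeq, and the deposited values are raw counts. Tool versions, the annotation and the strand setting of the counting are not given in the sources used here, so reads of overlapping opposite-strand genes cannot be assigned with certainty. Gene symbols came from a table of gene names, which matched 99.3% of the 49671 identifiers. Merged exon lengths came from GENCODE M21, in which 91.5% of genes had the coordinates of the deposited tables.

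The filter kept 18668 genes, those whose count exceeded 1 in 3 or more libraries. They were scaled by TMM and tested with the quasi-likelihood test of edgeR 4.0.16 in R 4.3.3, with a mean per group over all libraries, 5 contrasts and Benjamini-Hochberg adjustment over all genes tested, at a threshold of 0.05. Normalized counts are counts scaled to the mean effective library size, 21092260. The study used DESeq with a count cutoff above 1. The test was checked on simulated data: of 200 genes changed by a log2 fold change of 1 among 18668 in the serum comparison with control siRNA, 96% were called, and 8 unchanged genes were called. The changed genes all had a mean above 1 CPM and were all raised. The check therefore does not cover changes in lower genes or the dependence of calls on scaling. No 2 libraries held identical counts. Same-numbered libraries did not deviate together (18 correlations over 10449 genes, from -0.12 to 0.10), so the replicate numbers were not used to pair libraries. Between libraries with different numbers, 36 correlations ran from -0.21 to 0.22, and the source of the larger ones was not tested.

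The members, the gene lists and the tests were chosen with earlier results of these data known. Named genes are the members, Tmpo, up to 6 genes a list with the largest change among those averaging 100 normalized counts or more, Etv1, and for each member the 2 most alike genes; a few genes that this rule names are not reported here. Alternatives were total counts, upper-quartile and RLE scaling, DESeq2 1.42.0, 3 other filters, a replicate block, a fit of only the compared groups, a threshold of 0.01, and leaving out each library. The settings for the lists, the family sums with total counts and the ratios within libraries were added after seeing the data. Depth limits the precision of low genes, and no intervals for counting error alone are given.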

Additional observations from a re-analysis of the deposited data

Results flagged for a closer look

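The serum response differed between Lap2 and control siRNA, by an edgeR interaction term over all 12 libraries, for 5 of the 8 genes. The log2 response with Lap2 siRNA minus that with control siRNA was -0.80 for Spry4 (edgeR adjusted p = 0.00023), -0.56 for Spred1 (adjusted p = 0.00021), -0.61 for Spred2 (adjusted p = 0.00046), -1.38 for Etv4 (adjusted p = 8.4e-06) and -0.62 for Etv5 (adjusted p = 0.00095). All 5 kept their sign and their call in each alternative tried, including the omission of any single library, although replicate 3 of the stimulated Lap2 siRNA group stood above the other 2 of its group for Etv4 and Spred1. Each of the 5 was called higher with Lap2 siRNA in starved cells, as were 17.8% of all genes tested, and this difference is part of the same interaction.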

How the results depend on the processing

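Of 40 differences of members, 31 passed the test, and 23 of these kept their sign and their call in every alternative apart from the stricter threshold of 0.01. The number of members called stayed within 6 to 8 for serum with control siRNA, 5 to 6 for serum with Lap2 siRNA, 6 to 7 and 4 to 5 for Lap2 siRNA in 0.3% and 15% FBS, and at 5 for the difference in response. With the replicate number as a block these counts were 8, 6, 7, 5 and 5, and the block changed no call. Differences that missed the test changed sign in some settings, and the cause was not tested. With total counts, Spred2 and Spred3 in 15% FBS had siRNA differences of 0.008 and 0.005 in place of -0.08 and -0.08. The siRNA difference of Etv4 in 15% FBS, 0.001, was -0.011 with RLE size factors, -0.014 with DESeq2, -0.008 with filterByExpr, -0.009 with a count above 1 in every library, -0.007 with no filter, -0.013 with the replicate block and -0.007 with only the compared groups. With single libraries left out it ran from -0.30 to 0.13. The serum response with Lap2 siRNA ran from -0.17 to 0.009 for Spred1 and from -0.063 to 0.058 for Spred3, the siRNA difference of Spred3 in 15% FBS from -0.19 to 0.05, and the difference in response of Spry1 from -0.266 to 0.074. Low counts limit Etv4 and Spry1 most, with group means down to 134 and 126 normalized counts.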
